A study of Mus musculus with 16 samples.

Results

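The FoxO, atrophy and autophagy genes are 10 transcripts taken by name from the mouse ventricle count table, in which they are 10 of 33399 gene rows. They comprise the transcription factors Foxo1 and Foxo3, the muscle ubiquitin ligases Fbxo32 and Trim63, and the autophagy and lysosome genes Map1lc3b, Sqstm1, Gabarapl1, Ulk1, Bnip3l and Ctsl. They were taken by name, by a rule that uses no measured value, but with earlier results of these data known. RNA-seq was made from the ventricles of 16 C57BL/6 wild-type mice, 1 library per mouse. In the 4 female and 4 male mice with chronic kidney disease (CKD), the disease was induced from 8 weeks of age by chow with 0.25% adenine given in alternation with standard chow for 6 weeks. The schedule aimed to hold blood urea nitrogen in a set range and to cap the loss of body weight. The 4 female and 4 male controls ate standard chow over the same 6 weeks. Adenine forms crystals in the renal tubules, so the kidney injury is chemical; the labels describe neither surgery nor a transgene. The question the design poses is which ventricular transcripts differ between mice with and without adenine-induced CKD, here asked of the machinery of muscle protein breakdown.

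FoxO transcription factors sit at the end of the insulin and growth factor pathway. The kinase AKT phosphorylates them and keeps them in the cytoplasm; when that signal is low they enter the nucleus and switch on genes of protein breakdown. In skeletal muscle their best known targets are the ubiquitin ligases Fbxo32 (atrogin-1) and Trim63 (MuRF1), which mark muscle proteins for the proteasome, and a set of autophagy genes. Autophagy encloses cytoplasm and worn mitochondria in a membrane that carries LC3 and GABARAP proteins and then fuses with the lysosome. In the heart both routes turn over contractile proteins and mitochondria.

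The libraries held 10203707 to 13626039 counts assigned to genes. All 10 genes passed the filter on low counts, as did 16400 genes in all; the lowest count of any of the 10 was 137, for Foxo1. Values are CPM, the count of a gene relative to the library's total count after scaling by the trimmed mean of M-values. The tissue label was checked against cell markers. The 8 cardiomyocyte markers summed to 32028 to 46969 CPM in CKD and 28198 to 39359 CPM in control ventricles, and the 6 atrial markers to 175 to 752 CPM in CKD and 216 to 898 CPM in control. The 8 fibroblast markers summed to 199 to 1125 CPM in CKD and 832 to 1062 CPM in control, and the 8 macrophage markers to 81.0 to 182 CPM in CKD and 133 to 195 CPM in control; no gene of these 4 lists was at 0 in every library. Among the 16 libraries, male CKD mouse 4 stood apart, with the lowest fibroblast sum (199 CPM) and the highest cardiomyocyte sum (46969 CPM), and female control mouse 2 lay at the far end of the first principal component. Results on the 10 genes that rest on these libraries are given with and without them.

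Reference sequence from 250 bases before to 50 bases after the start was taken from RefSeq (GRCm38.p6) for the 8 of the 10 genes that matched its promoter table, all but Fbxo32 and Bnip3l. Both strands were searched for TGTTTAC, the core letters of a FoxO site, and for CACGTG, the E-box core of the lysosomal CLEAR element; none of the 8 windows held both, so no matches overlapped. TGTTTAC stood in 1199 of 32851 promoters (3.65%) and in 1 of the 8, Trim63, on the gene's strand with its first base at position -194 from the start. CACGTG stood in 2349 promoters (7.15%) and in 1 of the 8, Ctsl, at position -236 from the RefSeq start. The Ctsl window lies wholly within the span of the gene in GENCODE M21 (64359337 to 64370890). Its RefSeq start is thus downstream of the 5′ end annotated there, and the match lies inside that span. A match is a string of letters, not a shown binding site. The promoters printed are those of Map1lc3b, Ctsl and Trim63, the genes with the highest CKD estimates of the 10, and of Ulk1, the gene that varied most between mice. Capitals mark the motif. Trim63 lies at chr4:134314870-134315169 (+ strand), Ctsl at chr13:64370471-64370770 (- strand), Map1lc3b at chr8:121590188-121590487 (+ strand) and Ulk1 at chr5:110810032-110810331 (- strand); each sequence runs 5′ to 3′ on the gene's strand.
Trim63: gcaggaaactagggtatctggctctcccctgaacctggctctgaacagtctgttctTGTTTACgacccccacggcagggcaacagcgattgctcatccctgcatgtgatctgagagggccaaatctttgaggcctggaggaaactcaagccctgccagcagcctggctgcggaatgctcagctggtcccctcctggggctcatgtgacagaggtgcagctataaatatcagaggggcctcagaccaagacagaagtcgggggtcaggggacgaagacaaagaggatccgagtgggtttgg
Ctsl: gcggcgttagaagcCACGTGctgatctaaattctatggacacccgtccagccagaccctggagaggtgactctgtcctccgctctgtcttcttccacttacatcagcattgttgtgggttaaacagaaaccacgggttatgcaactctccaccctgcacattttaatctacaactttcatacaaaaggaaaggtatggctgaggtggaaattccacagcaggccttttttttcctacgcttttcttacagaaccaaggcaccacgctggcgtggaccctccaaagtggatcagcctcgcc
Map1lc3b: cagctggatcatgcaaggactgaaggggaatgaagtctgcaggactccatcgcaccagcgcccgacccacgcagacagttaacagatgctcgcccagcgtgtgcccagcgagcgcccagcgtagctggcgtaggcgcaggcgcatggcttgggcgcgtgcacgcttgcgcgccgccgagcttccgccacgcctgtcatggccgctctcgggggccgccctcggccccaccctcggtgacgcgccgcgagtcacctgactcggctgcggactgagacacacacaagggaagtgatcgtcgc
Ulk1: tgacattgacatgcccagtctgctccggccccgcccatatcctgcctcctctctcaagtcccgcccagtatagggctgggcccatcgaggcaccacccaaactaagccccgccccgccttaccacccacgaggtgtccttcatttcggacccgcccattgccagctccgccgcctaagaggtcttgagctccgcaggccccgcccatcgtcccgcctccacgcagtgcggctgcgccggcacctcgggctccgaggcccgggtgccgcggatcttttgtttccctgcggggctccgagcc
The capitals in the Trim63 line spell TGTTTAC and those in the Ctsl line CACGTG, while the Map1lc3b and Ulk1 windows hold neither string. The Map1lc3b and Ulk1 windows are 68.0% G and C, against 57.0% for Trim63 and 50.0% for Ctsl.

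In CKD ventricles none of the 10 genes passed the test against controls. In edgeR's quasi-likelihood test with sex as a covariate and Benjamini-Hochberg adjustment over all 16400 genes, 0 of the 10 had an adjusted p under 0.05, as against 0.0854% of all genes tested (14 genes). DESeq2 and limma-voom also called 0 of the 10, against 2.43% and 1.21% of all genes. At an unadjusted p under 0.05, edgeR gave 2 of the 10, Map1lc3b and Ctsl, beside 15.4% of all genes; DESeq2 and limma-voom gave the same 2, beside 15.9% and 19.3% of all genes. The estimates were positive for 7 of the 10 genes (50.2% of all genes tested), with a median log2 fold change of 0.06 for the 10 genes and 0.00 for all genes. They ran from -0.26 for Ulk1 to 0.26 for Ctsl. The standard error was 0.07 to 0.11 for 6 genes and 0.14 to 0.33 for Foxo1, Foxo3, Sqstm1 and Ulk1, so the sizes that these libraries can separate from zero differ widely within the group.

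**Figure D1:**
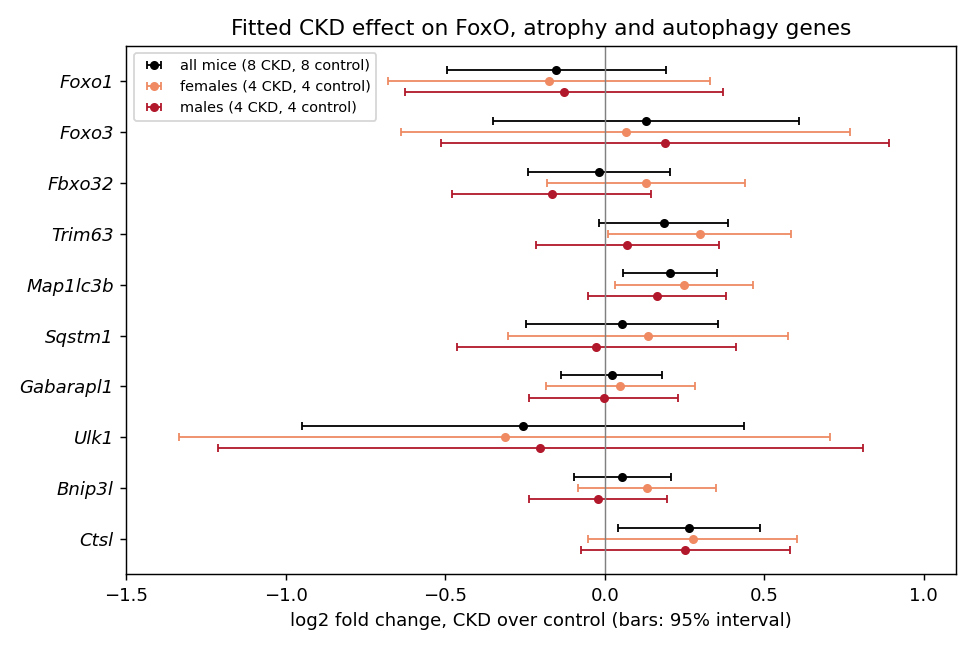
Fitted log2 fold change, CKD over control, of each gene (x axis) for all 16 mice and for females and males alone, with 95% intervals as bars. The intervals of Map1lc3b and Ctsl over all mice lie above 0 before adjustment for the number of genes, those of Ulk1 reach from -0.95 to 0.44, and no gene passed the adjusted threshold.

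The FoxO factors themselves did not pass. Foxo1, a major target of insulin signalling, is encoded on chromosome 3 (52268336 to 52353221, + strand, GRCm38). Foxo1 had 11.8, 13.8, 16.5 and 19.1 CPM in the female CKD mice, against 13, 12, 21.2 and 23 CPM in the female controls. In males it had 20.8, 21.7, 19.7 and 22.5 CPM with CKD, against 15.8, 19.9, 24.3 and 32.6 CPM without. The groups overlapped in both sexes, and the 4 male CKD values lay within the span of the male controls. The CKD estimate was -0.15 ± 0.16 (log2 fold change and SE, n = 8 and 8, adjusted p = 0.670 by edgeR). Foxo3, which drives both the ligase and the autophagy programme in skeletal muscle, is on chromosome 10 (42181841 to 42276755, - strand). Foxo3 ranged over 60.1 to 136 CPM (median 92.3) in CKD ventricles and 38.8 to 132 CPM (median 93.5) in control ventricles. Its estimate was 0.13 ± 0.23 (adjusted p = 0.804) and turned to -0.03 without male CKD mouse 4 and female control mouse 2. The remaining FoxO genes did not pass either. Foxo4 averaged 47.5 ± 21.4 CPM in CKD and 53.4 ± 20.0 CPM in control (SD, n = 8 each; log2 fold change -0.19, adjusted p = 0.712), and the low Foxo6 averaged 1.15 ± 0.72 CPM in CKD and 1.69 ± 1.33 CPM in control (-0.54, adjusted p = 0.595).

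The ubiquitin ligases gave estimates of different size in the sexes, and neither gene passed. Trim63, the muscle RING-finger ligase that acts on thick-filament proteins, lies on chromosome 4 (134315120 to 134329629, + strand). Trim63 had 323, 310.4, 270.0 and 288 CPM in the female CKD mice, against 252, 268, 211 and 239 CPM in the female controls. In males it had 279.9, 222, 229.7 and 345 CPM with CKD, against 278, 235, 252 and 259 CPM without. Each of the 4 female CKD mice was above each of the 4 female controls, a separation seen in 7.57% of all genes tested; the male groups overlapped, and the highest male value, 345 CPM, was that of CKD mouse 4. The log2 fold change was 0.18 ± 0.10 over all mice (SE, adjusted p = 0.366 by edgeR), 0.30 in females and 0.07 in males. Without male CKD mouse 4 the estimate was 0.13 over all mice and -0.05 in males. That mouse also had the highest cardiomyocyte marker sum. Its sum of 7 markers listed for skeletal muscle was the highest too (2013 CPM, against 1061 to 1722 CPM in the other libraries). Of these markers, Myh2, Myh4 and Tnnt3 did not pass the filter on low counts. Every library had a sum of at least 1061 CPM. Whether any library held skeletal muscle tissue was not tested. The part of cell makeup in the estimate was not tested. In bulk tissue a different number of cells of a type and a different amount of RNA per cell cannot be told apart.

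Fbxo32 encodes the F-box ligase atrogin-1, known in the heart for limiting calcineurin signalling (chromosome 15, 58175879 to 58214932, - strand). Fbxo32 had 203, 208, 189 and 220.3 CPM in the female CKD mice, against 159, 176, 193 and 222 CPM in the female controls. In males it had 159, 149.7, 166 and 175 CPM with CKD, against 204, 168, 133 and 225 CPM without. Within each sex the CKD and control mice overlapped. Its estimate was -0.02 ± 0.11 over all mice (SE, adjusted p = 0.942), with 0.13 in females and -0.17 in males. The difference between the sexes' CKD effects, tested as an interaction, was 0.30 for Fbxo32 (unadjusted p = 0.171, adjusted p = 1), the lowest p of the 10 genes in edgeR. No gene of all those tested passed for the interaction in edgeR (0%; 1.68% at an unadjusted p under 0.05, and 0 of the 10). DESeq2 likewise called 0 of the 10 for the interaction, with 0 at an unadjusted p under 0.05 (1.55% of all genes). By limma-voom 0 were called, and Fbxo32 and Trim63 had an unadjusted p under 0.05, 2 of the 10 beside 5.48% of all genes.

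Among the autophagy genes, Map1lc3b gave the lowest p for CKD. It encodes LC3B, the ubiquitin-like protein that is joined to lipid on the growing autophagosome (chromosome 8, 121590361 to 121598760, + strand). Map1lc3b had 306, 342, 310.0 and 296 CPM in the female CKD mice, against 309.7, 262, 238 and 246 CPM in the female controls. In males it had 312, 315, 281 and 305 CPM with CKD, against 284, 278, 256 and 265 CPM without. All 8 CKD mice lay above the control median and 4 lay above the highest control, female control mouse 1. Apart from that mouse, the highest control had 284 CPM and the lowest CKD mouse 281 CPM. Map1lc3b averaged 308 ± 17.5 CPM in CKD and 267 ± 22.8 CPM in control (SD, n = 8 each), a log2 fold change of 0.21 ± 0.07 (SE; 95% interval 0.06 to 0.35; unadjusted p = 0.00919, adjusted p = 0.180 by edgeR). The estimates were 0.25 in females and 0.16 in males. It kept its sign under all 29 other settings, from 0.16 to 0.25, with adjusted p from 0.0735 (DESeq2) to 0.496.

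Map1lc3b shares stretches of sequence with pseudogenes that have rows of their own. Gm6055, Gm12727, Gm6054 and Gm5612 held 23.5%, 2.24%, 4.03% and 0.75% of the summed counts of these 5 rows, and their own CKD estimates were 0.28 to 0.32, none past the threshold. Summing the 5 rows gave a log2 fold change of 0.24 (adjusted p = 0.136). The sources used here do not say how the counting divided reads among the copies, so the level of Map1lc3b alone is uncertain.

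Gabarapl1, a GABARAP-family relative of LC3 and a reported FoxO3 target in muscle, was among the steadiest of the 10 (chromosome 6, 129533160 to 129542346, + strand). Gabarapl1 ranged over 91.6 to 116 CPM (median 108) in CKD ventricles and 90.3 to 117 CPM (median 104) in control ventricles. Its estimate was 0.02 ± 0.08 (SE, adjusted p = 0.898; 95% interval -0.14 to 0.18). Sqstm1 encodes sequestosome, the receptor that carries ubiquitinated cargo to LC3 and also binds the NRF2 regulator KEAP1 (chromosome 11, 50199366 to 50210827, - strand). Sqstm1 ranged over 218 to 446 CPM (median 299) in CKD ventricles and 224 to 413 CPM (median 321) in control ventricles. The highest Sqstm1 value, 446 CPM, was that of female CKD mouse 4, while the other 3 female CKD mice had 218 to 252 CPM. The estimate was 0.05 ± 0.14 (adjusted p = 0.869). Exons on the opposite strand cover 28.3% of Gabarapl1's exon bases (1700101I11Rik) and 17.3% of Sqstm1's (Mrnip), and the sources used here do not say whether reads were counted by strand.

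Ulk1 encodes the kinase that starts autophagy, held in check by mTORC1 and activated by AMPK (chromosome 5, 110784488 to 110810097, - strand). Ulk1 had 26.8, 36.6, 48.2 and 76 CPM in the female CKD mice, against 28.6, 13.7, 89.2 and 102 CPM in the female controls. In males it had 70.1, 67.3, 64.4 and 105 CPM with CKD, against 53.7, 72, 88.7 and 138 CPM without. The lowest value, 13.7 CPM in female control mouse 2, and the highest, 138 CPM in male control mouse 4, are both from controls, a 10.1-fold span; without female control mouse 2 the span was 26.8 to 138 CPM, or 5.16-fold. With such a spread the CKD estimate of -0.26 ± 0.33 has a 95% interval from -0.95 to 0.44 (adjusted p = 0.724 by edgeR). Changes of either sign within that interval remain compatible with these libraries. Without male CKD mouse 4 and female control mouse 2 it was -0.53 (adjusted p = 0.331), with the GC trend removed per library -0.02 (adjusted p = 0.972), and leaving out each library in turn gave -0.40 to -0.10. Bnip3l encodes NIX, a receptor that brings mitochondria to autophagosomes, best known from maturing red cells (chromosome 14, 66985239 to 67008877, - strand). Bnip3l ranged over 80.8 to 114 CPM (median 102) in CKD ventricles and 81 to 114 CPM (median 93.8) in control ventricles. Its CKD estimate was 0.06 ± 0.07 (adjusted p = 0.725).

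Ctsl encodes cathepsin L, a lysosomal cysteine protease (chromosome 13, 64359337 to 64370890, - strand). Ctsl had 235, 264, 255 and 231 CPM in the female CKD mice, against 228, 223, 188 and 175 CPM in the female controls. In males it had 211, 268, 207 and 214 CPM with CKD, against 182, 257, 169 and 147 CPM without. All 4 female CKD mice were above all 4 female controls, and in males the highest CKD value (mouse 2) and the highest control value (mouse 2) stood above the rest of their groups. Over all mice Ctsl averaged 236 ± 24.2 CPM in CKD and 196 ± 36.5 CPM in control (SD, n = 8 each), a log2 fold change of 0.26 ± 0.11 (SE; 95% interval 0.04 to 0.49; unadjusted p = 0.0228, adjusted p = 0.244 by edgeR), with 0.28 in females and 0.25 in males. All 8 CKD mice were above the control median. Its estimate was positive under all 28 other settings, from 0.11 to 0.33, with adjusted p from 0.102 to 0.747. Of the exon bases of Ctsl, 26.8% lie under exons of Gm47123 on the opposite strand.

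Non-overlap of the groups was thus seen for 2 of the 10 genes in females (Trim63 and Ctsl; 7.57% of all genes), for 0 in males (3.20% of all genes) and for 0 over the 8 CKD and 8 control mice (0.201%). In females alone 0 of the 10 passed in edgeR (0.0549% of all genes), in DESeq2 (0.195%) or in limma-voom (0.335%), with Trim63 and Map1lc3b at an unadjusted p under 0.05 in each (8.34% of all genes in edgeR, 8.53% in DESeq2 and 18.8% in limma-voom). In males alone 0 of the 10 passed in edgeR (0%), DESeq2 (0.0732%) or limma-voom (0%); at an unadjusted p under 0.05 there were 0 in edgeR and DESeq2 (6.88% and 7.07% of all genes) and 1, Fbxo32, in limma-voom (8.6%). Estimates ran from -0.31 to 0.30 in females and from -0.20 to 0.25 in males.

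**Figure D2:**
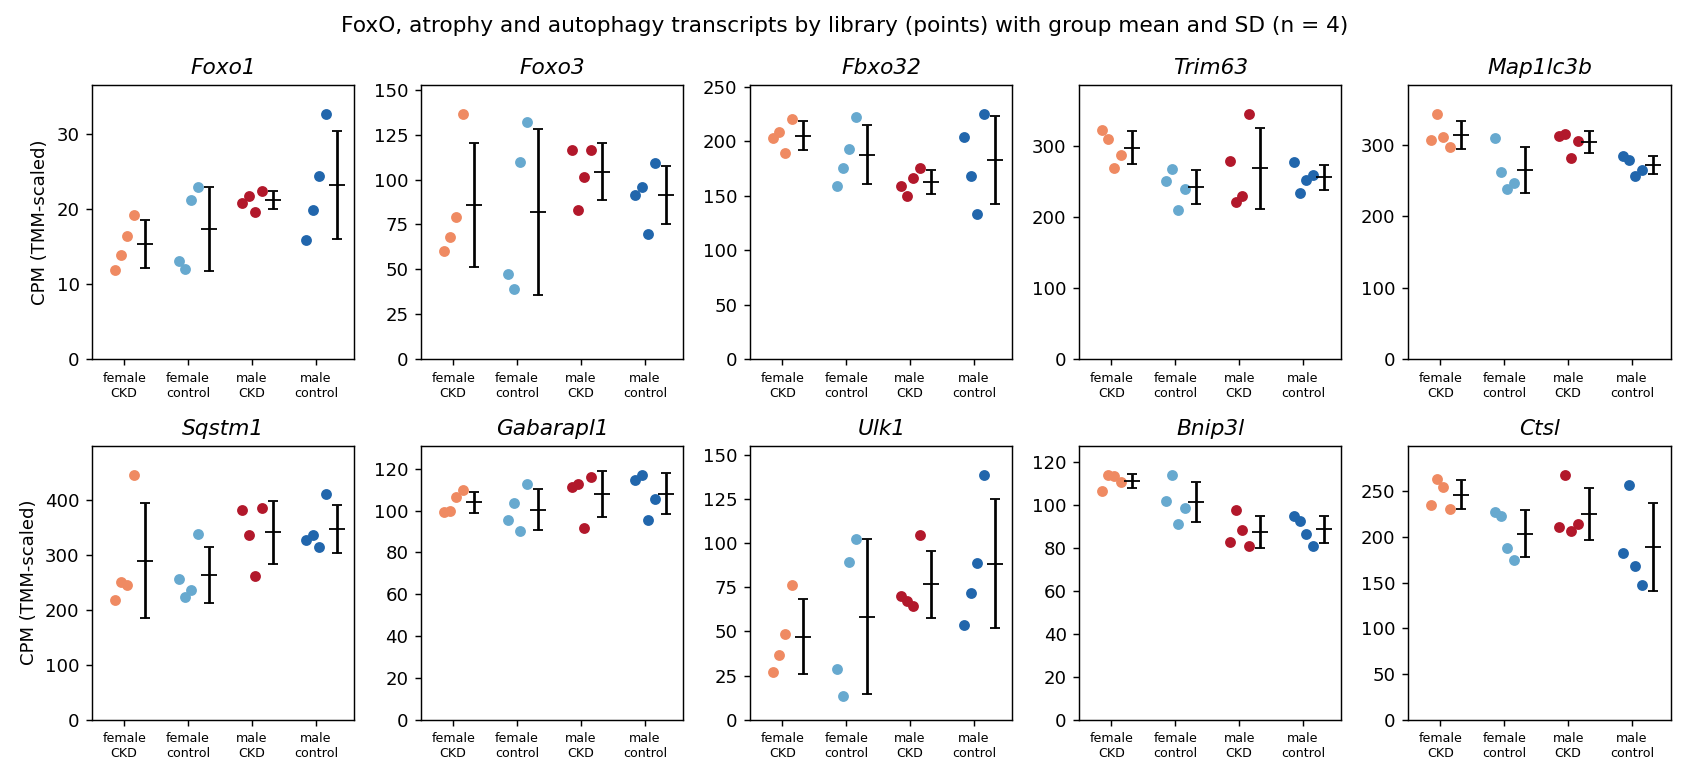
CPM of each gene in every library (points), with group mean and SD (bars, n = 4), for female CKD, female control, male CKD and male control mice. The female CKD points of Trim63 and Ctsl lie above all female control points, and Ulk1 and Foxo3 spread more widely within groups than Map1lc3b, Gabarapl1 and Bnip3l.

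Levels were compared between genes as CPM per kilobase of exon. Exon length was the union over all annotated transcripts, 7517 bases for Map1lc3b and 2013 bases for Gabarapl1. The order depends on this length: in plain CPM, Map1lc3b (267 in control) stood above Gabarapl1 (104). Which transcripts the ventricle uses was not tested. In control ventricles Sqstm1 (91.2 ± 18.8) and Trim63 (87.7 ± 7.41) were the highest, and their ranges overlapped. Gabarapl1 (51.8 ± 4.93) lay below Trim63 and above Map1lc3b (35.6 ± 3.03) with no overlap of libraries on either side. Ctsl (30.2 ± 5.62), Fbxo32 (26.5 ± 4.59) and Bnip3l (24.7 ± 2.62) followed, each overlapping its neighbours. Foxo3 (11.5 ± 4.28) came next, without overlap with Bnip3l. Ulk1 (11.3 ± 6.24) overlapped Foxo3 and, with its highest library at 21.33, also the lowest Bnip3l and Fbxo32 libraries (20.98 and 19.06), and Foxo1 (2.34 ± 0.78) was the lowest (SD, n = 8 for each). In CKD ventricles the order was the same but for Trim63 (99.8 ± 15.2), which then stood above Sqstm1 (94.2 ± 24.8), a swap within their spread.

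Between the sexes no gene of the 10 passed in edgeR either, and Bnip3l came closest. For females over males, 0 of the 10 had an adjusted p under 0.05 in edgeR (0.171% of all genes), and Foxo1, Sqstm1 and Bnip3l had an unadjusted p under 0.05 (25.2% of all genes). Bnip3l ranged over 91.5 to 114 CPM (median 109) in the 8 females and 80.8 to 97.6 CPM (median 87.4) in the 8 males. Of the 8 females, 7 lay above the highest male. The share of all genes with as many females above the highest male was not counted. The log2 fold change of Bnip3l was 0.27 ± 0.07 (SE, unadjusted p = 0.00137, adjusted p = 0.0664 by edgeR). DESeq2 and limma-voom put it past the threshold (adjusted p = 0.00636 and 0.0178) as the single gene of the 10, where they called 9.03% and 16.6% of all genes. Without female control mouse 3, edgeR also called it (adjusted p = 0.0257), together with 8.81% of all genes. Bnip3l shares sequence with the pseudogene Bnip3l-ps, which held 27.2% of the 2 rows' sum; summed, the estimate was 0.27 (adjusted p = 0.0666).

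The other sex estimates included lower values in females for Foxo1 (-0.44, adjusted p = 0.114), Sqstm1 (-0.32, adjusted p = 0.177) and Ulk1 (-0.65, adjusted p = 0.226), and ran from -0.22 for Foxo3 to 0.19 for Fbxo32 among the remaining genes. The libraries of the sexes also differed in how expression varied with transcript base composition. The correlation across genes between a library's deviation from the mean and transcript GC content was -0.50 to 0.00 in female CKD, -0.47 to 0.15 in female control, 0.03 to 0.41 in male CKD and 0.01 to 0.56 in male control libraries. With this trend removed per library, the estimate was -0.49 for Foxo1, -0.17 for Sqstm1, -0.28 for Ulk1 and 0.13 for Bnip3l (adjusted p = 0.163, 0.495, 0.546 and 0.305), and those of Foxo3 and Gabarapl1 turned to 0.15 and 0.06. Transcript GC content was 43.4% for Bnip3l, the lowest of the 10, and 58.1% for Ulk1, the highest.

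Within groups, the 10 genes fell into steady and variable transcripts. The SD of log2 CPM around the 4 group means was 0.11 for Bnip3l and Map1lc3b and 0.13 for Gabarapl1, at percentiles 1.66, 1.98 and 5.87 of 7889 genes of at least moderate level (mean log2 CPM of 4 or more). Fbxo32, Trim63 and Ctsl lay between 0.18 and 0.22. It was 0.31 for Sqstm1, 0.36 for Foxo1 and 0.54 for Foxo3, and 0.83 for Ulk1, at percentile 98.2. With the GC trend removed, the SD was 0.55 for Ulk1 and 0.35 for Foxo3 but 0.39 for Foxo1. Deviations of 6 of the 10 genes followed the libraries' GC trend by Pearson correlation over 16 libraries (permutation test within groups, adjusted p = 0.0300 to 0.0368 over 10 relations). Among all genes tested, 15.9% had an r at least as far from 0 as the lowest of these 6 (0.660), and 18.6% did among the 7889 genes. The r was positive for Ulk1 (r = 0.789), Foxo1 (0.743), Foxo3 (0.695) and Sqstm1 (0.660) and negative for Bnip3l (-0.686) and Ctsl (-0.685). By Spearman correlation none passed (rho = 0.706, 0.647, 0.571, 0.612, -0.653 and -0.641 in the same order; lowest adjusted p = 0.0525). Without male CKD mouse 4 and female control mouse 2 the Pearson r was 0.697 for Ulk1, 0.670 for Foxo1, 0.567 for Foxo3, 0.645 for Sqstm1, -0.578 for Bnip3l and -0.686 for Ctsl, and 0 of the 10 passed.

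Foxo1 and Ulk1 varied together from mouse to mouse. Their log2 CPM deviations from the group means correlated with r = 0.925 and rho = 0.947 over 16 libraries (two-sided permutation test, p = 1e-05, the smallest that 100000 resamples can give, adjusted p = 0.00045 over 45 pairs; Spearman p = 4e-05, adjusted p = 0.0018). The value was 0.955 without the 2 libraries farthest from the median of Foxo1, male control mice 1 and 4. It was 0.970 within females and 0.923 within males, 0.963 without male CKD mouse 4 and female control mouse 2, and 0.905 with the GC trend removed (adjusted p = 0.00225). Of the 45 pairs, 3 passed by Pearson correlation, all positive. The other 2 were Foxo3 with Ulk1 (r = 0.890, p = 0.00283, adjusted p = 0.0489; rho = 0.821, p = 0.00907, adjusted p = 0.0859) and Foxo3 with Fbxo32 (r = 0.632, p = 0.00326, adjusted p = 0.0489; rho = 0.735, p = 0.00308, adjusted p = 0.0693). Without female control mice 2 and 4, farthest from the median of Foxo3, they were 0.803 and 0.594. Foxo3 with Ulk1 was 0.972 within females and 0.369 within males, and Foxo3 with Fbxo32 was 0.802 within females and 0.792 within males. With the GC trend removed they were 0.685 (adjusted p = 0.227) and 0.784 (adjusted p = 0.0544). Foxo1 with Ulk1 alone passed by both measures and with the trend removed. The first principal component over all genes held 39.7% of the variance. Its highest score was that of female control mouse 2 (78.1), with 13.7 CPM of Ulk1 and 12 CPM of Foxo1. Its lowest was that of male control mouse 4 (-47.8), with 138 and 32.6 CPM. The part of this library-wide variation in the r of Foxo1 with Ulk1 was not tested. How many pairs among all genes reach such an r was not counted.

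**Figure D3:**
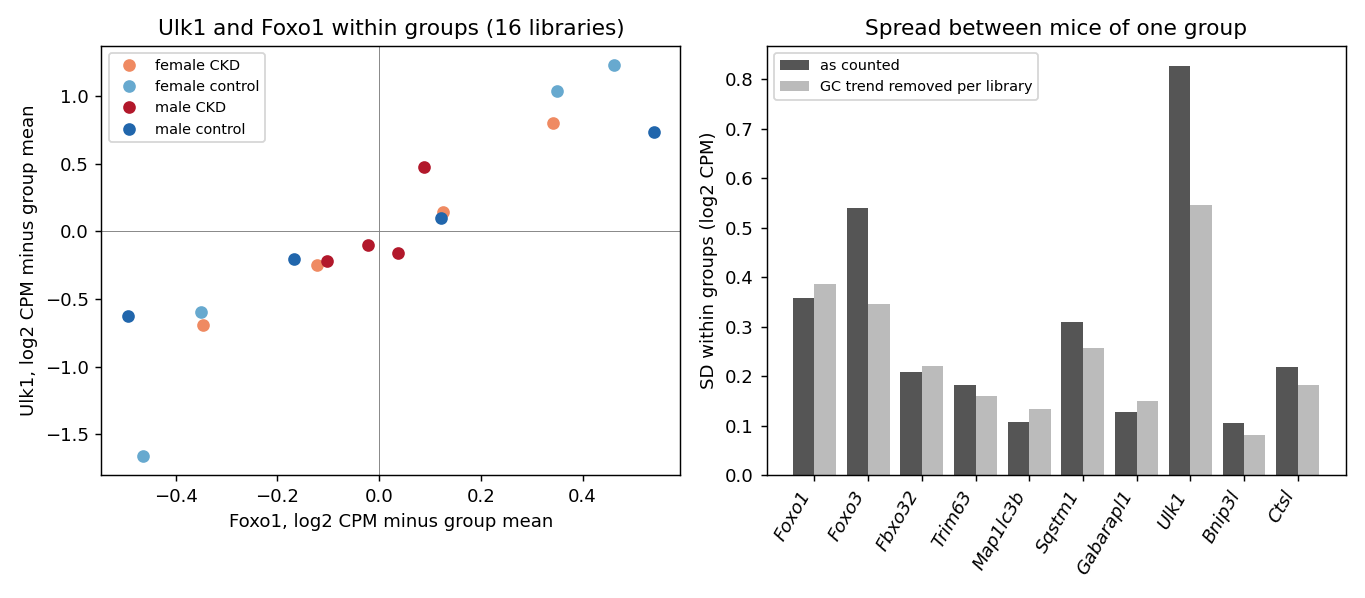
Left, Ulk1 against Foxo1 as log2 CPM minus the group mean in 16 libraries, coloured by group (r = 0.925). Right, the SD within groups of each gene as counted and with the GC trend removed per library, highest for Ulk1 in both (0.83 and 0.55).

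Fbxo32 and Trim63, though both ligases are known FoxO targets in muscle, did not pass as a pair or with Foxo1. The r was 0.18 for Fbxo32 with Trim63 (-0.23 within females and 0.34 within males), 0.37 for Foxo1 with Fbxo32 (0.74 within females and 0.11 within males) and -0.30 for Foxo1 with Trim63 (-0.79 within females and 0.02 within males). Map1lc3b deviated opposite to Foxo1 (r = -0.56) and Ulk1 (-0.50), also short of it. The genes whose deviations were most like those of Ulk1 over the 16 libraries, among 7126 protein-coding genes searched, were Trak1 (r = 0.986) and Ints1 (0.983), with transcript GC contents of 56.6% and 60.1%. For Foxo1 they were Sec24b (0.964) and Eif4g3 (0.961), for Foxo3 Ddr1 (0.938) and Wdr26 (0.933), and for Trim63 Mrps27 (0.958) and Srprb (0.943). Fbxo32 was most like Ppp2r3a (0.863) and Mylk4 (0.849), Bnip3l like Anxa4 (0.891) and Cavin2 (0.879), and Ctsl like Riox2 (0.896) and Cdk7 (0.889). Sqstm1 was most like Glud1 (0.849), Map1lc3b like Wdr70 (0.857) and Pfkp (0.772), and Gabarapl1 like Slc4a1ap (0.799) and Ptp4a1 (0.789). These values describe 16 libraries that differ in depth and in base composition trend. The part of those differences in the values was not tested.

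**Figure D4:**
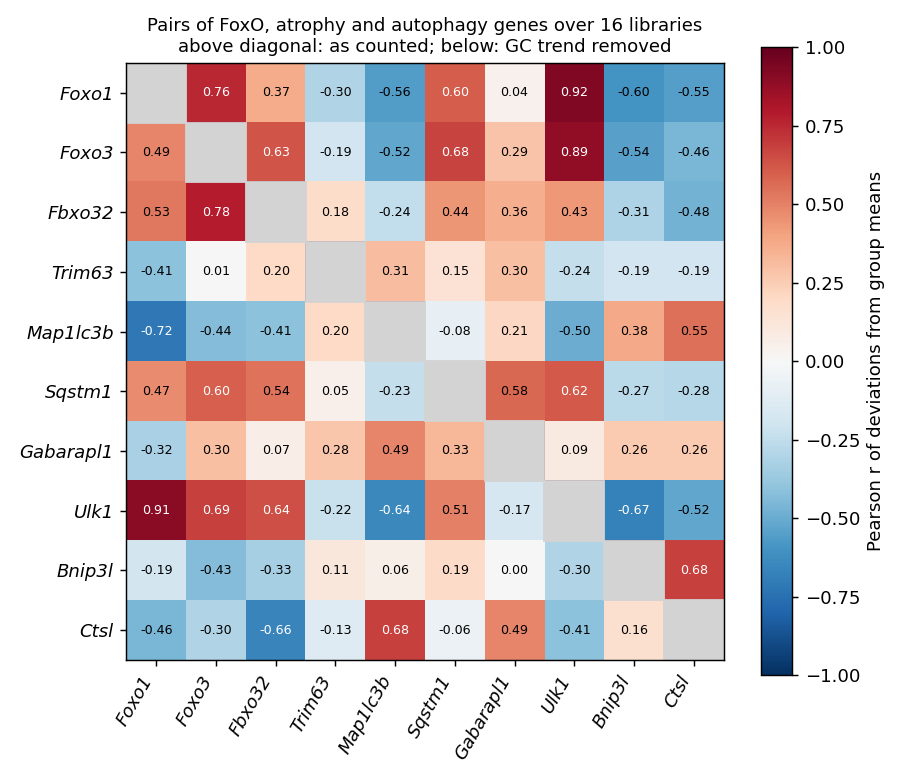
Pearson r of log2 CPM deviations from the group means over 16 libraries for each pair of genes, as counted above the diagonal and with the GC trend removed below it; red is positive and blue negative. Foxo1 with Ulk1 is high on both sides (0.925 and 0.905), while Foxo3 with Ulk1 is 0.890 above and 0.685 below.

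In edgeR the wider pathway showed no called gene either. Of 146 genes listed from the insulin input through FoxO targets, ligases, autophagy and lysosome, 145 were tested and 0 passed in edgeR, with 24 at an unadjusted p under 0.05 (16.6%, beside 15.4% of all genes; 17 higher and 7 lower). Estimates were positive for 81, and the median log2 fold change was 0.04 against 0.00 for all genes. DESeq2 called 3, Cul1, Eif4ebp1 and Nfkbia (2.43% of all genes), and limma-voom 1, Eif4ebp1 (1.21%). Eif4ebp1, an inhibitor of cap-dependent translation and a FoxO target, had the lowest p of the listed genes: it averaged 93.5 ± 17.2 CPM in CKD and 65.1 ± 7.71 CPM in control (SD, n = 8 each), with 6 of 8 CKD mice above the highest control. Its log2 fold change was 0.53 ± 0.11 (SE, adjusted p = 0.0813 by edgeR; 0.00199 by DESeq2 and 0.0439 by limma-voom). Bcl2l11, which encodes the pro-apoptotic protein BIM and is also a FoxO target, had 7 of 8 CKD mice above the highest control (log2 fold change 0.33 ± 0.10, adjusted p = 0.136). Eif4ebp1 and Bcl2l11 were named for the lowest p of their list, so a near separation from controls follows in part from that choice. The share of all genes with as many CKD mice above the highest control was not counted. The list of other reported FoxO targets held 11 positive estimates of 16, with a median of 0.15. Of these 16, 4 had an unadjusted p under 0.05 by edgeR, 3 higher and 1 lower.

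On the input side, Pik3r1, the regulatory subunit of PI3-kinase, had an estimate of 0.41 ± 0.16 (SE, adjusted p = 0.222) and the insulin receptor Insr 0.19 ± 0.09 (adjusted p = 0.317); 9 of the 12 genes of insulin, AKT and SGK input had positive estimates (median 0.06, 2 at an unadjusted p under 0.05). In the myostatin, SMAD and inflammatory list, 4 of 13 tested were positive (median -0.08, 3 at an unadjusted p under 0.05). Nfkbia, the inhibitor of NF-kB and itself induced by it, averaged 64.8 ± 15.9 CPM in CKD and 43.0 ± 11 CPM in control (SD, n = 8 each; log2 fold change 0.59, adjusted p = 0.123 by edgeR and 0.0410 by DESeq2), and Smad3, which carries the myostatin signal, had an estimate of -0.28 (adjusted p = 0.214). Among 18 ligases and cofactors 13 were positive (median 0.11, 3 at an unadjusted p under 0.05), with 0.22 for Cul1, the scaffold of the Fbxo32 complex (adjusted p = 0.153 by edgeR and 0.0490 by DESeq2), and 0.34 for Trim54, a relative of Trim63 (adjusted p = 0.184).

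The autophagy lists divided in sign without any call. Initiation and nucleation genes were positive in 6 of 16 (median -0.03, 1 at an unadjusted p under 0.05), with 0.33 for Atg101, a subunit of the ULK1 complex (adjusted p = 0.284), and -0.19 for Wipi1, which binds the lipid of the nascent membrane (adjusted p = 0.341). Conjugation genes were positive in 10 of 15 (median 0.02, 3 at an unadjusted p under 0.05). Gabarapl2, of the same family as Gabarapl1, had 0.20 (adjusted p = 0.225 by edgeR), while the protease Atg4d had -0.37 (adjusted p = 0.299). Receptors were positive in 11 of 15 (median 0.05, 0 at an unadjusted p under 0.05), with 0.16 for Optn (adjusted p = 0.418) and 0.13 for Tax1bp1 (adjusted p = 0.450), both receptors for ubiquitinated cargo. Of 22 lysosomal genes 10 were positive (median -0.02, 5 at an unadjusted p under 0.05). Opposite in sign to Ctsl stood Ctsz, another lysosomal cathepsin, at -0.34 (adjusted p = 0.136), and Mcoln1, the lysosomal calcium channel, at -0.20 (adjusted p = 0.222). For the mTORC1 and AMPK input to ULK1, 6 of 14 were positive (median -0.06, 3 at an unadjusted p under 0.05), among them Rheb, the activator of mTORC1 (0.15, adjusted p = 0.283), and with the opposite sign Flcn, which acts on the Rag GTPases (-0.19, adjusted p = 0.268).

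Markers of other cell types had CKD estimates of their own in the same libraries. All 8 fibroblast markers (median -0.44) and 7 of 8 endothelial markers (-0.28) had negative estimates. So did 7 of 8 pericyte and smooth muscle (-0.15) and 7 of 8 macrophage markers (-0.11). None passed the threshold in edgeR, with 4, 2, 0 and 1 in this order at an unadjusted p under 0.05. The fibroblast sum was 199 CPM in male CKD mouse 4, 870 to 1055 CPM in the other male CKD mice and 832 to 1028 CPM in male controls. In females it was 680 to 1125 CPM with CKD and 880 to 1062 CPM without. The endothelial sum was 409 CPM in male CKD mouse 4 and 781 to 924 CPM in the other male CKD mice. Marker estimates without that mouse are not given here. The 4 lymphocyte markers tested were all negative (median -0.67, 2 at an unadjusted p under 0.05). Those listed summed to 3.40 to 6.12 CPM in CKD and 5.41 to 9.30 CPM in control. The 5 erythroid markers were all negative over all mice (median -0.36, 0 at an unadjusted p under 0.05). Their median was -0.879 in males and 0.155 in females, so the sexes differed in sign. Positive estimates were found for 3 of 6 atrial (-0.14) and 2 of 4 skeletal muscle markers tested (-0.04). None of these passed the threshold. Of the cardiomyocyte markers, 6 of 8 were positive (median 0.17, 2 at an unadjusted p under 0.05), close in size to the estimates of Trim63 and Map1lc3b. The part of all these in the values of Trim63, Map1lc3b, Ctsl and Ctsz was not tested. Without male CKD mouse 4 and female control mouse 2, the estimates were 0.19 (adjusted p = 0.188) for Map1lc3b and 0.29 (adjusted p = 0.218) for Ctsl, neither past the threshold. Library titles carry a code number whose meaning is not given, and 5 CKD and 5 control libraries have the number 6. Among these 10 libraries the log2 fold change was 0.17 for Map1lc3b (adjusted p = 0.439 by edgeR), 0.11 for Ctsl (0.747) and 0.17 for Trim63 (0.553). The r among them was 0.939 for Foxo1 with Ulk1, 0.967 for Foxo3 with Ulk1 and 0.373 for Foxo3 with Fbxo32. The 3 libraries of title number 2 were each the highest of their group for Foxo1, Foxo3, Fbxo32, Sqstm1 and Ulk1. For no other gene of the 10 did all of them hold that place. The part of the title number in the spread within groups was not tested.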

How the data were processed

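Ventricular RNA of 16 mice was sequenced, and the deposited table holds raw read counts for 33399 Ensembl genes. Their build was mm10, and STAR 2.6.1d, Subread 1.6.3 with featureCounts, DESeq2 1.30.1, MultiQC and FastQC are listed, per the submitters' processing notes. Strand and multi-mapping settings: not given in the sources used here. Symbols, coordinates, union exon lengths and transcript GC came from GENCODE M21 (33367 rows matched). The 10 genes and the pathway lists were chosen with earlier results of these data known.

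Counts were fitted in R 4.3.3 with edgeR 4.0.16 (trimmed mean of M-values, quasi-likelihood F test, two-sided). Genes were kept by filterByExpr with a minimum count of 10 and a minimum total of 15, which left 16400. CKD and sex were terms of one model; effects within a sex and their interaction were contrasts of the 4 groups. The threshold was an adjusted p of 0.05 (Benjamini-Hochberg over all genes tested). The fit was tested on simulated data. DESeq2 1.42.0, limma 3.58.1 (voom with sample quality weights), other scalings and filters, removal of a lowess GC trend per library and leaving out libraries were alternatives. Log2 CPM for correlations used a prior count of 2, and permutations were made within groups. Library totals of 10203707 to 13626039 and 4 mice per group set the precision (median standard error 0.15 for a log2 fold change of CKD over control). Named genes were all 10, the 2 lowest p of each pathway list outside them, and the 2 most alike genes of each (1 of these is not reported here).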

Additional observations from a re-analysis of the deposited data

Results flagged for a closer look

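In 3 of 40 groups of 4 mice (10 genes in 4 groups), a sample lay far from the other 3 by Dixon's test, which chance gives in about 1 of 20 groups. Sqstm1, the autophagy receptor sequestosome, had 446 CPM in female CKD mouse 4, while the other female CKD mice had 218 to 252 CPM. Ulk1, the kinase that starts autophagy, had 105 CPM in male CKD mouse 4, while the other male CKD mice had 64.4 to 70.1 CPM. Ctsl, the protease cathepsin L, had 268 CPM in male CKD mouse 2, while the other male CKD mice had 207 to 214 CPM. Each of the 3 flagged libraries carries a title number that no other library of its group has. The meaning of that number is not given, and its part in these values was not tested.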

How the results depend on the processing

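No paired analysis was possible because replicate numbers follow the order of the samples and pair no mice. For CKD over control, 267 of 282 values of the 10 genes under other settings kept their direction and 0 passed the threshold. The 15 that turned were of small estimates. Without male CKD mouse 4 and female control mouse 2, Foxo3 was -0.032 and Sqstm1 -0.026. Fbxo32 was 0.069 with the title number as a factor and 0.028 among title number 6 libraries; among those libraries Sqstm1 was -0.029 and Gabarapl1 -0.036. By limma-voom Sqstm1 was -0.081 and Gabarapl1 -0.018, and without mitochondrially encoded genes Gabarapl1 was -0.0022. Leaving out each library gave -0.0099 to 0.25 for Foxo3, -0.065 to 0.047 for Fbxo32, -0.082 to 0.11 for Sqstm1 and -0.024 to 0.058 for Gabarapl1. For females over males, removing the GC trend gave 0.15 for Foxo3 and 0.059 for Gabarapl1, leaving out both libraries gave -0.014 for Map1lc3b, and leaving out each library gave -0.012 to 0.11 for Trim63 and -0.030 to 0.028 for Map1lc3b. In males the CKD estimate of Ctsl was -0.063 among title number 6 libraries, and that of Trim63 was -0.11 by limma-voom, -0.075 without both libraries and -0.054 to 0.14 leaving out each.

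The count of all genes called for CKD was 14 in edgeR, 398 by DESeq2 (224 higher, 174 lower), 199 by limma-voom, 53 without a filter, 234 with the title number as a factor, 8 among title number 6 libraries, 22 without both libraries, 22 with the GC trend removed and 6 to 43 leaving out each library. It was 43 without female CKD mouse 4, 37 without male control mouse 2, 9 without female control mouse 1, 8 without male control mouse 3 or female control mouse 4, and 6 without male CKD mouse 1, male control mouse 4, female CKD mouse 1, 2 or 3, or female control mouse 3. Of pathway genes 0 were called in edgeR, 3 by DESeq2, 1 by limma-voom, 1 without a filter, 2 with the title number as a factor (Eif4ebp1 and Pik3r1), 1 with the GC trend removed, and 0 to 1 leaving out each library (1, Eif4ebp1, without male CKD mouse 3). In males the count was 0, with 12 by DESeq2, 1 without a filter and 0 to 1 leaving out each library (1 without female control mouse 1). In females it was 9, with 32 by DESeq2, 55 by limma-voom, 3 among title number 6 libraries, 0 from the 8 female libraries alone and 0 to 13 leaving out each library. It was 0 without female CKD mouse 1 or 2, 1 without female CKD mouse 3, male CKD mouse 1 or 3 or male control mouse 4, 2 without female control mouse 2 or 3, and 4 without female control mouse 1 or 4.

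For females over males it was 28, with 1481 by DESeq2, 2717 by limma-voom, 48 by upper-quartile scaling, 616 without a filter, 15 with the title number as a factor, 16 among title number 6 libraries, 12 with the GC trend removed and 8 to 1461 leaving out each library. It was 1461 without female control mouse 3, 245 without male control mouse 2, 18, 14 and 11 without male control mouse 3, 1 and 4 in turn, 9 without male CKD mouse 1 or 2, 9, 8 and 11 without female CKD mouse 1, 2 and 3 in turn, and 10 and 12 without female control mouse 1 and 2 in turn. Gene pairs past the threshold numbered 3, with 1 without both libraries and 1 with the GC trend removed; genes following the GC trend numbered 6, with 0 without both libraries, a setting chosen after seeing the data, as were the sums with pseudogenes. The cause of these differences was not tested.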
